A study of Mus musculus with 16 samples.

Results

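The extracellular matrix genes of 4T1 and 67NR mouse mammary carcinoma cells were compared between the lines, and between vehicle and the inhibitor CIX. A list of 48 mouse genes was examined, out of 33072 genes in the deposited table, and all 48 were found by symbol. It holds 6 fibrillar collagens, 7 collagens, nidogens and proteoglycans of the basement membrane, 7 laminin chains, 6 other collagens, 10 matrix glycoproteins, 4 proteoglycans of the interstitial matrix, 6 enzymes that process or crosslink collagen, and 2 markers of mesenchymal cells. RNA was sequenced from 16 samples in 4 groups of 4 biological replicates. 4T1 vehicle and 67NR vehicle cells had received DMSO, and 4T1 CIX and 67NR CIX cells had received 15 µM of CIX, an inhibitor of cytosolic phospholipase A2 alpha (cPLA2α). All cells had been cultured in medium with serum and were harvested after 24 h of treatment. Both lines come from a single spontaneous mammary tumor of a BALB/c mouse, 4T1 being metastatic and 67NR non-metastatic. Each line was cultured by itself, so that a difference between them is a difference between 1 line and 1 other line. A sample is named here by its group and its number in the labels.

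Collagens are helical trimers. Fibrillar collagens form the cables of the interstitial matrix, whereas type IV collagen forms a sheet that makes up the basement membrane under epithelia together with laminins, nidogens and perlecan. Laminins consist of an alpha, a beta and a gamma chain. Procollagens are trimmed outside the cell by proteinases such as Bmp1, aided by Pcolce, and are crosslinked by lysyl oxidases. Epithelial cells mainly produce laminins and type IV collagen, and fibroblasts and other mesenchymal cells are known for fibrillar collagens, vimentin and N-cadherin.

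Levels are given as CPM, estimated counts scaled to a common library size with TMM, for comparisons of a gene between samples, and as TPM, which also corrects for transcript length, for comparisons between genes. The total estimated count was between 21715700 and 29450629 per sample. A level of 3 counts, the smallest taken as detected, was between 0.102 and 0.138 CPM, which covers counting error only. Genes were called at a limma-voom adjusted p-value (Benjamini-Hochberg, over all genes tested) below 0.001, and a gene was left out of a CIX comparison if its TPM was below 1 in more than 3 of the 8 samples. Of the 48 genes, 27 passed this limit in both lines, 1 in 4T1 alone (Lama3), 9 in 67NR alone, and 11 in neither line. No replicates were repeats of each other. 67NR vehicle 13 stood apart from the others of its group, with a median correlation to them of 0.9753, as compared to 0.9887 to 0.9897 for the others. 4T1 CIX 4 was at 0.9771 where the others of its group were at 0.9848 to 0.9869, and the 4T1 vehicle samples were between 0.9735 and 0.9820.

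The promoters of 4 genes that the results turn on are shown first, because these genes responded to CIX and encode different kinds of protein: Vim (vimentin, an intermediate filament), Sparc (a collagen-binding glycoprotein), Fbln2 (fibulin-2, which binds laminin and fibronectin) and Pcolce (the enhancer of procollagen C-proteinase). Each is the 250 bases before the transcription start in RefSeq on GRCm38.p6, written 5′ to 3′ on the strand of the gene. Capitals mark matches, on either strand, to the CCAAT box, the GC box GGGCGG, the TATAAA box, the AP-1 motif TGANTCA, the Smad element CAGACA or the E-box CACCTG. No marked matches overlap each other in these windows.
Vim, chr2:13574061-13574310, plus strand: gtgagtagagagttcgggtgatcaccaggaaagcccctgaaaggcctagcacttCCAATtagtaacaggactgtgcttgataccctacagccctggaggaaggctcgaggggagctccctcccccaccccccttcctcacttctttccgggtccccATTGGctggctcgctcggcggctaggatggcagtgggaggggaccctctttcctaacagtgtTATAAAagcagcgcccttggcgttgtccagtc
Sparc, chr11:55420081-55420330, minus strand: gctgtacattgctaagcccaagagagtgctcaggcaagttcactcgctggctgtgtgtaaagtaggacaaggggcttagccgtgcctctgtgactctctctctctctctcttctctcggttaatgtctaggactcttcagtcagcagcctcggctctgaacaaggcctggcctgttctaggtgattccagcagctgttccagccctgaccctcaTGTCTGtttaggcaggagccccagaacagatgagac
Fbln2, chr6:91212514-91212763, plus strand: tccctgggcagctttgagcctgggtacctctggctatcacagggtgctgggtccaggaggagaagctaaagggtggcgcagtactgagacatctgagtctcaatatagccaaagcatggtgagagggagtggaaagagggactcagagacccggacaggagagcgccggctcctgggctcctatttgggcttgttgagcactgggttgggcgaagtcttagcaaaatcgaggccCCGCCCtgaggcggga
Pcolce, chr5:137611405-137611654, minus strand: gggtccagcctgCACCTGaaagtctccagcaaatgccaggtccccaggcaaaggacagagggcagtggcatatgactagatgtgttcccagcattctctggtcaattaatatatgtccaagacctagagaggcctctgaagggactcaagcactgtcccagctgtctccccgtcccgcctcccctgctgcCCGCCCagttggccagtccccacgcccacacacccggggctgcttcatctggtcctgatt
The window of Vim held TATAAA, starting 32 bases before the transcription start, and CCAAT at 196 and, on the other strand, at 94 bases before it. Sparc held the reverse complement of CAGACA at 36 bases before its start, Fbln2 that of GGGCGG at 16 bases, and Pcolce that of GGGCGG at 60 bases and CACCTG at 238 bases. The RefSeq table held 37 promoter windows for 31 of the 48 genes, of which 25 (67.6%) contained GGGCGG, as compared to 32.7% of all 32851 windows. CCAAT was found in 32.4% of the member windows and 33.8% of all, TATAAA in 18.9% and 12.4%, TGANTCA in 5.41% and 6.75%, CAGACA in 32.4% and 17.1%, and CACCTG in 13.5% and 17.2%. A match describes the letters of the window only. Col4a1 and Col4a2, which encode chains of type IV collagen, start side by side on opposite strands of chromosome 8 (at 11312826 and 11312805, in GRCm38.p6). The window before each start therefore lies inside the other gene. In the GENCODE annotation of GRCm38, the protein-coding genes called in a comparison with CIX lie, as whole genes with their exons and introns, as follows. On the plus strand are Vim at chr2:13573927-13582826, Fbln2 at chr6:91212455-91272540, Col4a2 at chr8:11312805-11449287, Col5a1 at chr2:27886425-28039514, Col7a1 at chr9:108953586-108984875, Col16a1 at chr4:130047840-130099283, Thbs1 at chr2:118111876-118127133, Sned1 at chr1:93235841-93301065 and Loxl3 at chr6:83034173-83052562, and on the minus strand Sparc at chr11:55394500-55423183 and Pcolce at chr5:137605103-137613784. In Vim, Sparc, Fbln2 and Pcolce the GENCODE gene begins upstream of the RefSeq start used here, so that other transcripts start before the windows shown.

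In cells given vehicle, the laminin chains Lama5, Lamb1, Lamb3 and Lamc1 were higher in 4T1 than in 67NR, and the type V collagen chain Col5a1, Sparc, Pcolce, Loxl3 and Vim were lower, all of them genes expressed in both lines. Of the 48 genes 37 were tested between the lines, and 25 were called, 8 higher and 17 lower in 4T1, where 46.4% of all 12556 genes were called (23.7% higher and 22.7% lower). Of these, 10 genes had passed the limit on TPM through 1 line only, which makes a difference likely, and 9 of them were called, beside 78.9% of all genes that passed in that way. Among the 27 genes that passed in both lines 16 were called (59.3%), 7 higher and 9 lower in 4T1, as compared to 41.0% of all genes that passed in both. In TPM the highest of the 48 genes in 4T1 were Vim (996 TPM on average), Fn1 (540 TPM, fibronectin), Lama5 (370 TPM), Lamb1 (334 TPM) and Col4a1 (309 TPM). In 67NR they were Vim (4271 TPM), Sparc (1463 TPM), Pcolce (692 TPM), Fn1 (389 TPM) and Ecm1 (341 TPM). The samples of 1 line did not overlap those of the other in Vim, Sparc and Pcolce. Such separation was common, since 4309 of all 12556 genes lay higher in every 4T1 sample and 3898 lower. Of the 37 genes of the list these counts were 11 and 18. The 48 genes took between 0.726% and 0.972% of the counts in 4T1 vehicle and between 1.20% and 1.33% in 67NR vehicle.

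Of the 6 fibrillar collagens 5 were tested between the lines, and 4 were called lower in 4T1. Only Col5a1 passed the limit in both lines, and the others passed through 67NR, where they were higher, so that their count is no support for a direction of the group. Col5a2, a chain of type V collagen that regulates fibril diameter, had 0 counts in all 4T1 vehicle samples and 26.2, 13.0, 20.4 and 28.5 CPM in 67NR vehicle, at least 171-fold higher when set against 3 counts per library. Col5a3, another type V chain, also had 0 counts in each 4T1 vehicle sample and 8.51, 9.56, 9.15 and 7.69 CPM in 67NR, at least 67.9-fold higher. Col1a2, a chain of type I collagen, had 1.48, 0.480, 1.03 and 2.01 CPM in 4T1 and 4.55, 6.14, 7.25 and 4.97 CPM in 67NR (log2 fold change -2.37, standard error 0.38, limma-voom adjusted p = 3.61e-04). The groups did not overlap, but the call of Col1a2 was lost without 4T1 vehicle 3, 4T1 vehicle 11, 67NR vehicle 5 or 67NR vehicle 9, with a highest adjusted p of 0.00161. Col5a1, the remaining type V chain, was expressed in both lines and was 2.57-fold lower in 4T1 (57.0 ± 12.3 against 139.9 ± 17.9 CPM, SD, n = 4 each). Col1a1, the major chain of type I collagen, was at 1.01 ± 1.54 and 2.56 ± 1.81 CPM (log2 fold change -2.08, adjusted p = 0.0806), and 4T1 vehicle 7 with 3.32 CPM held most of its 4T1 counts, the value without that sample being -2.99 (adjusted p = 0.0234). Col3a1 was not tested, with 0 counts in all 4T1 samples and at most 1.15 CPM in 67NR.

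**Figure D1:**
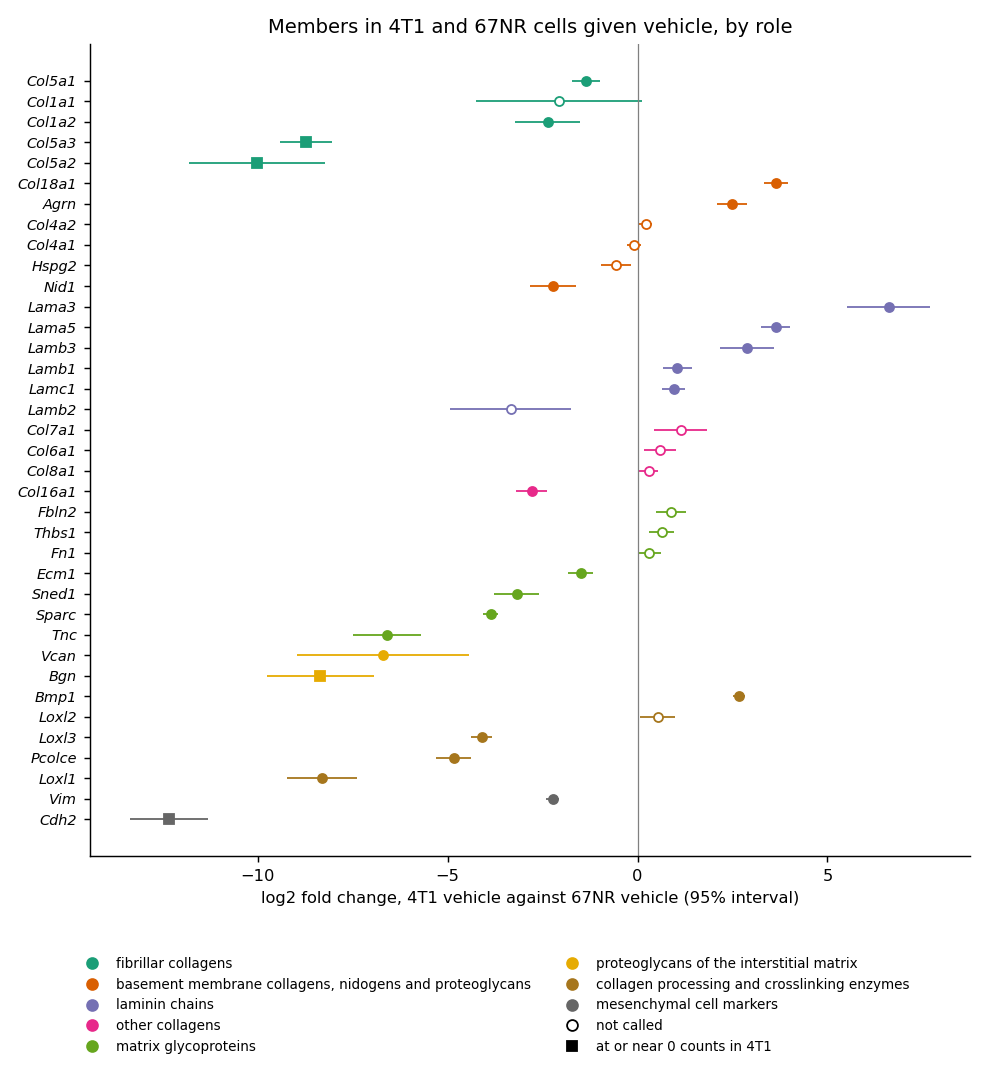
Log2 fold change of 4T1 vehicle against 67NR vehicle (horizontal axis, with its 95% interval from limma-voom) of the 37 tested genes, grouped by role. Filled symbols are called, and squares are genes with at most 6 counts in all 4T1 vehicle samples together, whose fitted value depends on the prior count. The 5 laminin chains called lie to the right of 0, from 0.95 to 6.62, and the 4 fibrillar collagens called lie to the left.

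Of the 7 laminin chains 6 were tested, and 5 were called higher in 4T1, of which Lama3 had passed the limit through 4T1 only. Of all genes tested between the lines 23.7% were called higher. Lama3, the alpha chain of the laminin that anchors epithelia, was at 23.4, 21.96, 21.6 and 33.7 CPM in 4T1 and at 0.277, 0.0889, 0.357 and 0.255 CPM in 67NR (log2 fold change 6.62, standard error 0.48, adjusted p = 2.13e-06). Lamb3, its beta chain, was 7.36-fold higher in 4T1. Lama5, a main alpha chain of other epithelial laminins, was at 657, 984, 919 and 1062 CPM in 4T1 and at 56.3, 83.9, 68.0 and 72.2 CPM in 67NR (log2 fold change 3.64, standard error 0.17, adjusted p = 1.93e-07). Lamb1 and Lamc1, the commonest beta and gamma chains, differed less, by 2.06-fold and 1.93-fold. The call of Lamb1 was lost without 4T1 vehicle 7, 4T1 vehicle 11 or 4T1 vehicle 15 (highest adjusted p = 0.00159). Lamb2, the alternative beta chain, was lower in every 4T1 sample, with 16.8, 2.45, 26.1 and 23.4 CPM as compared to 78.6, 122.8, 92.6 and 274.5 CPM in 67NR, but was not called (log2 fold change -3.34, standard error 0.71, adjusted p = 0.00212). 4T1 vehicle 7 and 67NR vehicle 13 were the extreme samples of Lamb2, and without the former the log2 fold change was -2.57 (adjusted p = 0.00156). Lama4, the alpha chain of vessels and mesenchymal tissue, had at most 7 counts in a sample.

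The type IV collagen genes of the list, Col4a1 and Col4a2, were at similar levels in both lines. Col4a1 was at 499 ± 39.2 CPM in 4T1 and 513 ± 28.9 CPM in 67NR (log2 fold change -0.09, 95% interval -0.27 to 0.09), and Col4a2 at 345 ± 25.5 and 288 ± 19.1 CPM (0.21, 95% interval 0.03 to 0.39, adjusted p = 0.0389). Col18a1, whose C-terminal fragment is endostatin, was called higher in 4T1, with 192.6, 207, 263 and 241 CPM against 14.3, 17.3, 18.5 and 19.8 CPM (log2 fold change 3.64, standard error 0.14). Agrn, the heparan sulfate proteoglycan agrin, was also higher, with 233, 324, 296 and 412 CPM against 58.1, 60.8, 52.2 and 43.7 CPM (log2 fold change 2.49, standard error 0.17). Nid1, the linker between laminin and type IV collagen, was lower, with 4.74, 15.9, 10.5 and 8.78 CPM against 39.8, 40.0, 43.9 and 41.4 CPM (log2 fold change -2.23, standard error 0.26). The samples of the lines did not overlap in any of these 3 genes. Hspg2, the proteoglycan perlecan, was at 232 ± 59.5 and 324 ± 31.3 CPM and was not called (adjusted p = 0.0173). Nid2 had 0 counts in 4T1 and at most 6 counts in a 67NR sample.

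Among the other collagens, Col16a1, which associates with fibrils, was called lower in 4T1, with 39.4, 30.7, 53.0 and 40.1 CPM against 233, 247, 263 and 338 CPM (log2 fold change -2.79, standard error 0.18). Col7a1, the anchoring fibril of epithelia, was at 83.6, 186.5, 176.5 and 162 CPM in 4T1 and at 46.3, 55.7, 62.7 and 104.9 CPM in 67NR (log2 fold change 1.13, adjusted p = 0.00928), and the groups overlapped. Col6a1 was at 8.36, 7.42, 6.71 and 7.88 CPM in 4T1, above all 67NR samples with 3.48, 5.16, 5.47 and 5.78 CPM (log2 fold change 0.59, adjusted p = 0.0194). Col8a1 was at 410.3 ± 61.6 and 321 ± 30.4 CPM. Col6a2 and Col12a1 were below the limit in both lines.

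Of the matrix glycoproteins, Sparc, Sned1 and Ecm1 were called lower in 4T1 among genes expressed in both lines. Tnc, the tension-regulated tenascin C, passed the limit through 67NR only and was at 1.15, 0.480, 0.559 and 0.821 CPM in 4T1 and at 56.4, 61.1, 83.7 and 77.1 CPM in 67NR (log2 fold change -6.60, standard error 0.39). Sparc was at 102, 109.8, 123.5 and 92.4 CPM in 4T1 and at 1529, 1601, 1486 and 1384 CPM in 67NR, 14.6-fold lower (log2 fold change -3.86, standard error 0.09, adjusted p = 3.23e-08). Sned1, a glycoprotein with sushi and nidogen domains, was at 1.89, 4.50, 3.96 and 4.06 CPM against 26.0, 33.1, 27.6 and 35.1 CPM (log2 fold change -3.18, standard error 0.26). Ecm1 was 2.82-fold lower. Fn1 (log2 fold change 0.31), Fbln2 (0.87) and Thbs1 (0.64, thrombospondin 1) were not called, with adjusted p-values of 0.0655, 0.00151 and 0.00309. Fbn1, Thbs2 and Postn were below the limit in both lines.

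Both interstitial proteoglycans tested, Bgn and Vcan, had passed the limit through 67NR only. Bgn, the small proteoglycan biglycan, was at 0, 0.131, 0.129 and 0 CPM in 4T1 and at 16.7, 20.9, 15.2 and 18.4 CPM in 67NR. With 6 counts against 1707 it was 281-fold lower in 4T1 (95% counting interval 129 to 767). Vcan, the large proteoglycan versican, was at 0.288, 0.349, 0.0861 and 5.58 CPM against 44.9, 40.8, 44.8 and 90.7 CPM (log2 fold change -6.70, standard error 1.00, adjusted p = 2.28e-04). 4T1 vehicle 15 and 67NR vehicle 13 were the high samples of Vcan, and its call was lost without 4T1 vehicle 3 or 4T1 vehicle 7 (highest adjusted p = 0.00198). Its value without 4T1 vehicle 15 was -7.87. Dcn and Lum, the other small proteoglycans of fibrils, were below the limit in both lines.

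Of the enzymes expressed in both lines, Pcolce and Loxl3 were lower and Bmp1 was higher in 4T1. Loxl1, a lysyl oxidase linked to elastic fibers, passed the limit through 67NR only and was at 0.206, 0.393, 0.387 and 0.123 CPM against 88.9, 94.6, 85.5 and 66.3 CPM (log2 fold change -8.31, standard error 0.41). Pcolce was at 30.6, 15.9, 14.2 and 22.5 CPM against 569, 607, 556 and 478 CPM, 28.6-fold lower (log2 fold change -4.84, standard error 0.20). Loxl3, another lysyl oxidase, was at 10.6, 13.8, 8.69 and 11.3 CPM against 185, 192, 184.5 and 169 CPM (log2 fold change -4.11, standard error 0.13). Bmp1 was 6.38-fold higher (322 ± 14.0 against 48.7 ± 2.19 CPM). Loxl2 was at 39.0 ± 10.7 and 25.4 ± 3.24 CPM (adjusted p = 0.0411), but 46.1% of its words of 31 bases are also found in transcripts of other genes, mainly Gm21451, so that its counts are uncertain. Lox had at most 1 count in any sample. Cdh2, the cadherin of mesenchymal and neural cells, passed the limit through 67NR only and had 2 counts in 4T1 vehicle, both in 4T1 vehicle 15, and 158, 166, 168 and 141 CPM in 67NR, a ratio of 7550 (95% counting interval 2090 to 62400). Vim was at 1163, 1021, 1104 and 1170 CPM in 4T1 and at 5430, 5374, 4996 and 4506 CPM in 67NR, 4.71-fold lower (log2 fold change -2.23, standard error 0.08, adjusted p = 6.28e-08).

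The cell type markers were read from lists beside these genes. All 12 epithelial markers were called higher in 4T1, where their summed level was between 3257 and 3552 TPM, as compared to 5.37 to 11.3 TPM in 67NR vehicle. All 12 passed the limit in 4T1 and 1 of them in 67NR, so that the count called follows largely from the limit. Epcam, a defining one, was at most 0.317 CPM in a 67NR vehicle sample. Of 13 fibroblast and mesenchymal markers 10 were tested, and 8 were called lower in 4T1, where 4 of the 10 passed the limit. Of all genes tested between the lines 22.7% were called lower. Of 7 leukocyte markers only Cd68 passed the limit, and the 5 endothelial markers had summed levels of at most 1.53 TPM in every group. In RNA of whole cultures, fewer cells of a type and less RNA per cell cannot be told apart.

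In 4T1 cells, CIX raised Vim, Fbln2, Sparc and Col4a2. These 4 were called of 28 genes tested (14.3%), all higher and 0 lower, where 9.28% of all 11677 genes were called, 5.33% higher and 3.96% lower. The median log2 fold change of the 28 genes was 0.55, with 23 positive and 5 negative values, as compared to a median of -0.01 over all genes. In 12 of the 28 genes all CIX samples lay above all vehicle samples and in 1 below, and over all genes these counts were 2477 and 2183. The share of counts in the 48 genes was between 1.06% and 1.25% in 4T1 CIX, as compared to 0.726% to 0.972% in 4T1 vehicle. It rose in 67NR as well, to between 1.38% and 1.59% with CIX from 1.20% to 1.33% with vehicle.

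Vim was at 2447, 2595, 2808 and 2830 CPM in 4T1 CIX, above the 1021 to 1170 CPM of 4T1 vehicle (log2 fold change 1.24, standard error 0.08, adjusted p = 4.27e-05). Fbln2 was at 94.1, 126.9, 134.4 and 104.8 CPM with vehicle and at 213, 300.1, 307 and 272 CPM with CIX (log2 fold change 1.23, standard error 0.15, adjusted p = 3.32e-04). Sparc was at 215, 239, 232.5 and 204 CPM with CIX, above the vehicle samples (log2 fold change 1.04, standard error 0.11, adjusted p = 1.53e-04), and stayed below all 67NR samples. Col4a2 was at 352, 307, 363 and 357 CPM with vehicle and at 590.2, 676, 530.4 and 534 CPM with CIX (log2 fold change 0.73, standard error 0.10, adjusted p = 6.35e-04). The groups did not overlap in any of the 4 genes, as the plot of called genes by sample shows. In fits that dropped 1 of the 8 samples at a time, Vim was called in 8 and Sparc in 7 (not without 4T1 CIX 8, adjusted p = 0.00107). Fbln2 was called in 3, being lost without 4T1 vehicle 7, 4T1 vehicle 15, 4T1 CIX 8, 4T1 CIX 12 or 4T1 CIX 16. Col4a2 was lost in all 8 (adjusted p between 0.00156 and 0.00301) and with scaling by library size alone. It was also lost when runs of 4 consecutive sample numbers were fitted as a block.

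**Figure D2:**
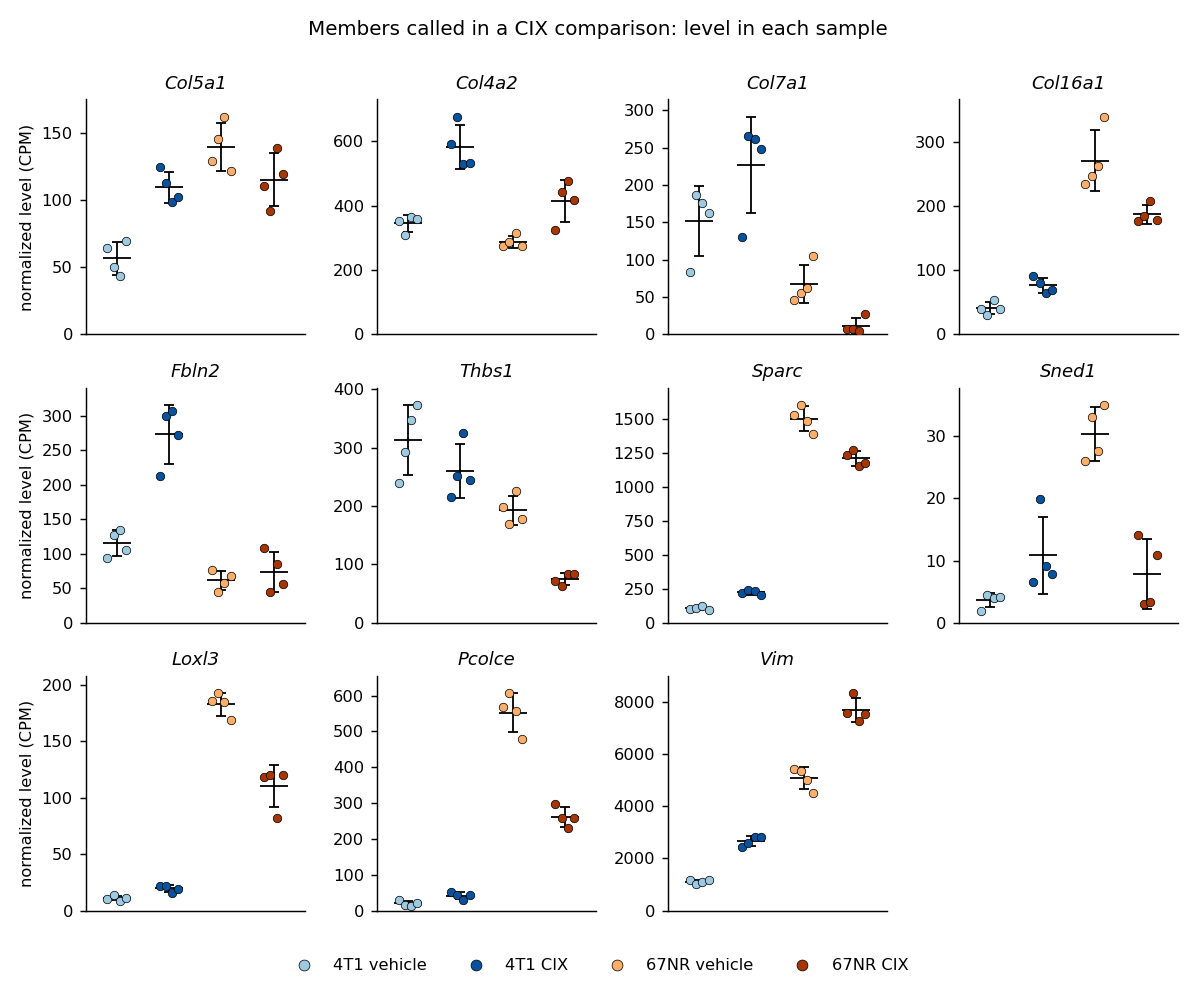
Level in each sample (vertical axis, CPM, linear from 0) of the 11 genes called in a CIX comparison, with a point per sample in the 4 groups and the mean with its SD. Vim, Sparc, Fbln2 and Col4a2 of the 4T1 CIX samples lie above those of 4T1 vehicle without overlap, and Pcolce and Thbs1 of the 67NR CIX samples lie below those of 67NR vehicle.

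The other genes of the basement membrane had smaller positive values or did not pass the threshold. Col4a1, the partner of Col4a2, was at 480.3, 504, 551 and 459 CPM with vehicle and at 828, 805, 702 and 675 CPM with CIX (log2 fold change 0.57, adjusted p = 0.00159). Lamc1 (0.59) and Col18a1 (0.49) also had all CIX samples above all vehicle samples, with adjusted p-values of 0.00516 and 0.00631. All 6 laminin chains tested had positive values and 0 were called, where 3 had an unadjusted p below 0.05 and DESeq2 called 2. Lamb2 had the largest log2 fold change of the 28 genes (3.36, standard error 0.57), from 16.8, 2.45, 26.1 and 23.4 CPM to 110.2, 156, 104.3 and 175 CPM, but an adjusted p of 0.00158. Without 4T1 vehicle 7, the low sample, its log2 fold change was 2.59 and the adjusted p 4.51e-04. Nid1 was the gene with all CIX samples below the vehicle samples, at 3.27, 3.95, 3.01 and 1.33 CPM (log2 fold change -1.77, standard error 0.44, adjusted p = 0.0106). Agrn, Hspg2, Lama3, Lama5, Lamb1 and Lamb3 had log2 fold changes between 0.09 and 0.53, with overlapping groups.

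**Figure D3:**
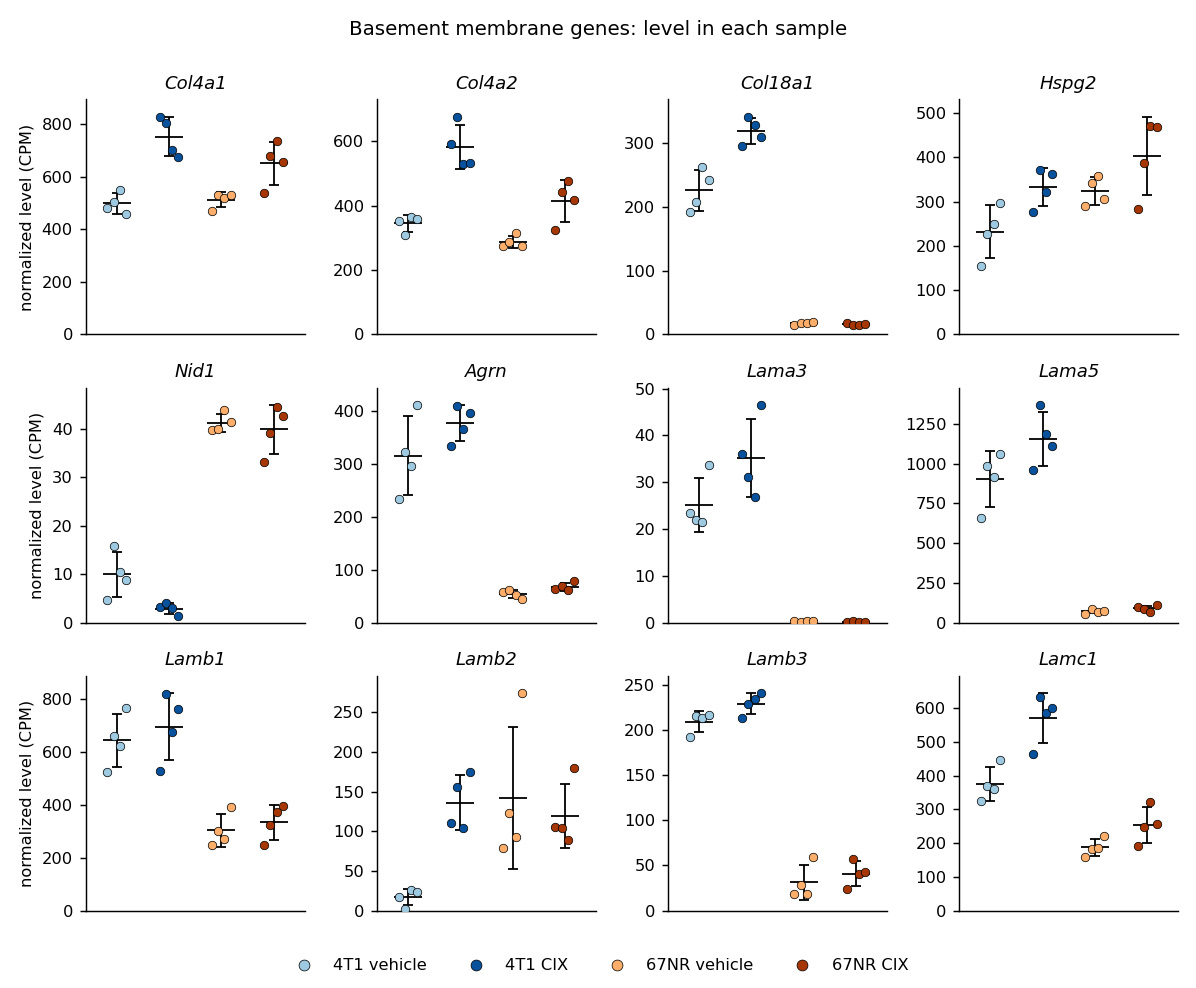
Level in each sample (vertical axis, CPM, linear from 0) of 12 basement membrane genes, with a point per sample in the 4 groups and the mean with its SD. Lamb2 of 4T1 vehicle lies at 26.1 CPM or lower in all 4 samples and at 104.3 CPM or higher in all 4T1 CIX samples, and Col18a1, Agrn, Lama3 and Lama5 separate the lines at either treatment.

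Col5a1 was the only fibrillar collagen tested in 4T1, at 64.6, 50.1, 43.4 and 69.9 CPM with vehicle and at 124.8, 113, 98.8 and 103 CPM with CIX (log2 fold change 0.95, standard error 0.16, adjusted p = 0.00152). Col16a1 had the next value among collagens, at 91.7, 80.1, 65.0 and 69.6 CPM with CIX (0.90, adjusted p = 0.00293). Loxl3 (0.81, adjusted p = 0.00517), Sned1 (1.48, adjusted p = 0.0169) and Pcolce (1.02, adjusted p = 0.0105) were positive without being called, and of these only Pcolce overlapped between the groups. Fn1, Ecm1, Col6a1 and Col7a1 had values between 0.33 and 0.65, and Bmp1, Col8a1, Thbs1 and Loxl2 between -0.66 and -0.08, all with overlapping groups. The 9 genes tested in 67NR alone remained low in 4T1 CIX, where Cdh2 and Col5a2 had 0 counts after rounding in all samples. DESeq2 called 14 of the 28 genes, 13 of them higher, and 26.5% of all genes.

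In 67NR cells, CIX lowered Thbs1 and Pcolce. These 2 were called of 36 genes tested (5.56%), with 0 higher, where 0.389% of all 11583 genes were called, 0.181% higher and 0.207% lower. The median log2 fold change of the 36 genes was -0.10, with 17 positive and 19 negative values. Thbs1, which activates latent TGF-beta, was at 197.6, 168, 225 and 178 CPM with vehicle and at 71.7, 62.0, 83.1 and 83.2 CPM with CIX (log2 fold change -1.38, standard error 0.12, adjusted p = 5.81e-04). Pcolce was at 299, 257, 232 and 257 CPM with CIX, below all vehicle samples (log2 fold change -1.10, standard error 0.09, adjusted p = 5.29e-04). Thbs1 lost its call when any 1 of the 8 samples was left out (adjusted p between 0.00116 and 0.00356). Pcolce kept its call only without 67NR vehicle 13 or without 67NR CIX 2. Both calls were lost when runs of 4 consecutive sample numbers were fitted as a block. DESeq2 called 11 of the 36 genes, 4 higher and 7 lower, and 9.40% of all genes.

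Vim had a positive value in 67NR as well, at 7562, 8344, 7280 and 7532 CPM with CIX (log2 fold change 0.58, standard error 0.07), and just missed the threshold with an adjusted p of 0.00133. All its CIX samples lay above all vehicle samples. In 7 other genes the CIX samples lay above the vehicle samples without a call, and in 8 they lay below, and over all 11583 genes, called or not, these counts were 1474 and 1224. Above were Col4a1 (0.32), Col4a2 (0.50), Agrn (0.32), Col5a3 (0.81), Fn1 (0.37), Tnc (1.27) and Ecm1 (0.38), with adjusted p-values between 0.00422 and 0.146. Tnc was at 84.4, 167.5, 262 and 218 CPM with CIX, and without 67NR CIX 2, the lowest of these, its log2 fold change was 1.61 (adjusted p = 0.00221). Below were Col7a1 (-2.80), Sned1 (-2.25), Bgn (-1.50), Loxl3 (-0.76), Col16a1 (-0.54), Col8a1 (-0.44), Sparc (-0.33) and Bmp1 (-0.31), with adjusted p-values between 0.0040 and 0.0225. Col7a1 was at 7.28, 7.92, 4.69 and 27.5 CPM with CIX, 67NR CIX 14 being the high sample. Of the fibrillar collagens 5 were tested and of the laminin chains 5, and 0 were called in either group, where 2 and 1 had an unadjusted p below 0.05 and DESeq2 called 1 and 0. Cdh2 stayed at 160.5 to 195 CPM (log2 fold change 0.10, 95% interval -0.08 to 0.29).

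The difference between the responses was tested with an interaction term over all 16 samples. Of 37 genes tested 8 were called (21.6%), all with a higher response in 4T1 than in 67NR and 0 with a lower, where 7.86% of all 12629 genes were called, 4.81% higher and 3.06% lower. They were Sparc, Vim, Col5a1, Col7a1, Col16a1, Sned1, Loxl3 and Pcolce, that is 3 collagens, 2 glycoproteins, 2 genes of collagen maturation and vimentin. The median difference of the 37 genes was 0.26 on the log2 scale, as compared to -0.02 over all genes. Of the 27 genes tested in both lines 13 had positive responses in both, 9 were positive in 4T1 and negative in 67NR, 1 the reverse, and 4 were negative in both.

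Sparc differed most clearly, with a response of 1.04 in 4T1 and of -0.33 in 67NR, where it was at 1231, 1273, 1153 and 1177 CPM with CIX (difference 1.37, standard error 0.12, adjusted p = 4.18e-06). Pcolce had responses of 1.02 and -1.10 (difference 2.12, standard error 0.27, adjusted p = 4.38e-05), and was at 51.8, 43.9, 29.6 and 42.5 CPM in 4T1 CIX. Loxl3 had 0.81 and -0.76 (difference 1.57, standard error 0.22, adjusted p = 1.04e-04), at 21.9, 21.7, 16.0 and 19.1 CPM in 4T1 CIX and 118, 119.9, 82.5 and 120.2 CPM in 67NR CIX. Col16a1 had 0.90 and -0.54 (difference 1.44, standard error 0.22, adjusted p = 1.66e-04), and was at 176, 184.5, 208 and 178.5 CPM in 67NR CIX. Vim was positive in both lines and more so in 4T1 (1.24 and 0.58, difference 0.66, standard error 0.10, adjusted p = 2.61e-04). Dropping any 1 of the 16 samples kept the calls of these 5 genes.

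The other 3 were nearer the threshold and lost their calls in most of these fits. Col5a1 had 0.95 in 4T1 and -0.30 in 67NR, where it was at 111, 92.0, 139 and 119.9 CPM with CIX (difference 1.25, standard error 0.22, adjusted p = 5.31e-04). Col7a1 was at 131, 266, 262 and 249 CPM in 4T1 CIX and had responses of 0.57 and -2.80 (difference 3.37, standard error 0.59, adjusted p = 6.07e-04). Sned1 was at 6.47, 19.9, 9.12 and 7.77 CPM in 4T1 CIX and 14.2, 3.05, 3.24 and 10.9 CPM in 67NR CIX, and had responses of 1.48 and -2.25 (difference 3.74, standard error 0.66, adjusted p = 6.25e-04). With 1 of the 16 samples dropped at a time, Col5a1 was called in 5 fits, Col7a1 in 6 and Sned1 in 3. The highest limma-voom adjusted p-values were 0.00175, 0.00219 and 0.00164. In these fits the differences stayed between 1.13 and 1.35 for Col5a1, 3.07 and 3.88 for Col7a1, and 3.38 and 4.15 for Sned1. Col5a1 was called without 4T1 vehicle 3, 4T1 vehicle 15, 4T1 CIX 12, 67NR vehicle 13 or 67NR CIX 10, and lost without any other. Col7a1 was called without 4T1 vehicle 3, 4T1 vehicle 7, 4T1 vehicle 11, 4T1 CIX 4, 67NR vehicle 1 or 67NR CIX 14, and Sned1 without 4T1 CIX 4, 67NR CIX 2 or 67NR CIX 14. edgeR did not call Col7a1 and Sned1, and scaling by library size alone did not call Col5a1. With runs of 4 consecutive sample numbers fitted as a block, Col5a1 and Sned1 were not called.

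**Figure D4:**
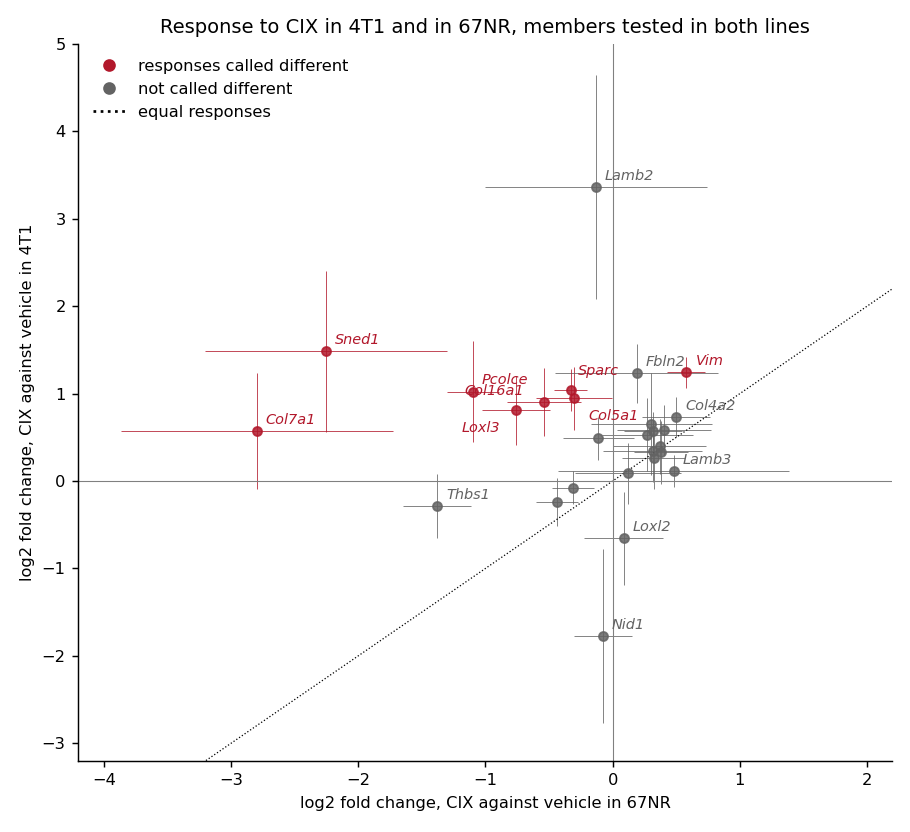
Log2 fold change of CIX against vehicle in 67NR (horizontal axis) and in 4T1 (vertical axis) of the 27 genes tested in both lines, with 95% intervals from limma-voom. Red points are the 8 genes whose responses were called different, which lie above the dotted line of equal responses, and Lamb2 (3.36 in 4T1) and Nid1 (-1.77) are the extreme points among those not called.

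Among genes not called, the largest differences between the responses were in Lamb2 (3.49, adjusted p = 0.00213), Col1a2 (-1.82, adjusted p = 0.0221), Col1a1 (1.76, adjusted p = 0.332) and Nid1 (-1.69, adjusted p = 0.00751). Without 4T1 vehicle 7 the value of Lamb2 was 2.72 and that of Col1a1 2.67 (adjusted p = 0.139). Nid1, the nidogen, passed the threshold with a lower response in 4T1 by DESeq2, which called 10 genes of the list as higher and 1 as lower, and in limma-voom without 4T1 vehicle 3 (-2.01, adjusted p = 0.000536). Fbln2 and Col4a2, called in 4T1, had differences of 1.04 (adjusted p = 0.0264) and 0.23 (95% interval -0.10 to 0.57), so that a response particular to 4T1 was not shown for either. Thbs1, called in 67NR, had a difference of 1.10 (adjusted p = 0.0016). The comparison between the lines and the responses share their vehicle samples, and no relation between them was computed.

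Of 89 other genes of the same pathways, 32 were tested in 4T1, and 2 were called higher and 1 lower with CIX (9.38%), a share close to that of all genes (9.28%). Matn2, the matrix adaptor matrilin 2, rose from 17.1, 11.8, 10.5 and 15.5 CPM to 39.8, 32.1, 26.8 and 37.1 CPM (log2 fold change 1.29, adjusted p = 8.14e-04). Plod1, which hydroxylates lysines of procollagen, rose from 15.0, 16.3, 21.8 and 19.7 CPM to 31.8, 40.1, 39.4 and 38.0 CPM (1.03, adjusted p = 6.22e-04), and Sec23a, a coat protein of the vesicles that export procollagen, fell from 119.6, 149, 141 and 113.5 CPM to 66.6, 69.3, 78.2 and 71.3 CPM (-0.88, adjusted p = 4.08e-04). In 67NR 0 of 43 were called, where 14 had an unadjusted p below 0.05, edgeR called 0 and DESeq2 called 5. In the interaction 3 of 45 were called (6.67%, as compared to 7.86% of all genes): Plod1 (1.07) with a higher response in 4T1, and Plod2 (-1.84), the lysyl hydroxylase of collagen telopeptides, and Sec23a (-1.03) with a lower one. Plod2 was at 83.3, 177.5, 179 and 165 CPM in 4T1 vehicle and 47.1, 41.8, 50.5 and 59.2 CPM in 4T1 CIX. Between the lines 9 of 45 were higher and 17 lower in 4T1 (57.8%, as compared to 46.4% of all genes). Of the 89 genes 32 passed the limit in 4T1 and 43 in 67NR, and those that passed through 1 line only were likely to differ by the limit itself. The widest were Fbln1 (fibulin-1), with 4 counts in 4T1 and 5441 in 67NR vehicle (1340-fold lower, 95% counting interval 525 to 4940), Col6a5 (log2 fold change -9.72), Crtap, a subunit of the prolyl 3-hydroxylase complex, with 1837 and 5 counts (372-fold higher, interval 159 to 1150), and Col22a1 (-8.16).

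Markers of cell types that moved with CIX were the following. In 4T1, where 9.28% of all genes were called, 1 of 12 epithelial markers was called higher (Esrp1, 0.76) and 1 lower (Epcam, -0.78). The summed level of the epithelial list was between 3440 and 3635 TPM with CIX as compared to 3257 to 3552 TPM with vehicle. Twist1 was called higher among 4 fibroblast and mesenchymal markers tested (0.92), the list having 1112 to 1766 TPM with CIX and 1101 to 1994 TPM with vehicle. In 67NR the 13 fibroblast and mesenchymal markers summed to between 7806 and 11510 TPM with CIX. With vehicle the sum was between 13490 and 20090 TPM, without overlap, but a sum is weighted to the most abundant genes. The 10 markers tested were split, with 4 positive and 6 negative values and a median log2 fold change of -0.18. Of these 10, limma-voom and edgeR called 0 and DESeq2 called 3. An unadjusted limma-voom p below 0.05 was found for 8, of which 3 were higher with CIX. Between the responses, where 7.86% of all genes were called, Twist1 (1.04) and Pdgfra (-0.79) were called of the 10 tested. Cd68 was called higher in 4T1 (1.25) and in 67NR (2.08), and the summed level of the leukocyte list was between 173 and 264 TPM in 4T1 CIX as compared to 72.3 to 118 TPM in 4T1 vehicle. The other leukocyte markers stayed at or near 0, with Adgre1 at 0 in every sample and Ptprc at most 0.681 TPM. The part of these markers in the results above was not tested.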

How the data were processed

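RNA of 4T1 and 67NR cells was sequenced in 16 samples of 4 groups with 4 biological replicates each, as given by the labels. The authors quantified reads with Salmon 0.12 (version per the submitters' processing notes) on the Ensembl GRCm38 transcriptome and aggregated them per gene with tximport, and the deposited table holds estimated counts for 33072 genes, not scaled to a common total. Whether tximport scaled them by transcript length is not given in the sources used here, and if so, the limit of 3 counts, the counting intervals and TPM are approximate. Only 0.121% of the values above 0 were within 0.0001 of a whole number. The estimated counts were rounded here, and an approximate TPM was derived with the average length of a gene's transcripts in GENCODE M21 (GRCm38), which can overstate genes with many short transcripts.

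Each line's 8 samples gave its CIX comparison, the responses were compared with an interaction over 16 samples, and the lines were compared in the 8 vehicle samples, with limma-voom and TMM (limma 3.58.1, edgeR 4.0.16, R 4.3.3) at a Benjamini-Hochberg adjusted p below 0.001. The interaction kept genes that met the limit on TPM in either line, and the line comparison dropped those under 1 TPM in over 4 of its 8 samples. Each fit was tested on simulated data. The genes, role groups, pathway and marker lists and motifs were chosen with earlier results of these data known. Values in every sample are given for genes called in a CIX comparison and for up to 3 genes of each role group with the largest difference between the lines, and from the pathway lists up to 4 called genes with the largest fold change in each comparison are named. Sample values of Col4a1 in 4T1, of Lamb2 and Nid1 in 4T1 CIX and of Tnc in 67NR CIX, and other genes named where they fell near the threshold or did not overlap between groups, were chosen after their values were seen. The alternatives used DESeq2 1.42.0 (Wald test), quasi-likelihood fits in edgeR, DESeq2 size factors, library size alone, other filters, sample quality weights, a common fit of all samples, a threshold of 0.05 and leaving out each sample. Promoter sequences come from RefSeq (GRCm38.p6), and protein sequences were not used here. Reads carried no molecular identifiers, and the counting intervals (exact binomial) cover counting error only.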

Additional observations from a re-analysis of the deposited data

Results flagged for a closer look

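In 10 of 124 groups of 4 samples 1 sample lay farther from the others than Dixon's test at 95% allows, where about 6.2 would by chance. High samples were Lama3 in 4T1 vehicle 15 (33.7 CPM, the others 21.6 to 23.4 CPM), Col7a1 in 67NR CIX 14 (27.5 CPM, the others 4.69 to 7.92 CPM), Vcan in 67NR vehicle 13 (90.7 CPM, the others 40.8 to 44.9 CPM), Loxl1 in 67NR CIX 2 (78.4 CPM, the others 67.1 to 69.0 CPM), Loxl2 in 67NR CIX 14 (34.3 CPM, the others 24.4 to 26.0 CPM) and Bmp1 in 4T1 CIX 8 (344 CPM, the others 295.5 to 302.5 CPM). Low samples were Lamb3 in 4T1 vehicle 3 (192.0 CPM, the others 213 to 216 CPM), Col6a1 in 67NR CIX 2 (4.58 CPM, the others 6.60 to 6.96 CPM), Col7a1 in 4T1 CIX 4 (131 CPM, the others 249 to 266 CPM) and Loxl3 in 67NR CIX 10 (82.5 CPM, the others 118 to 120.2 CPM).

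The response to CIX differed between the lines in 8 genes by the interaction test, each with the higher response in 4T1. The differences on the log2 scale were 1.25 for Col5a1, 3.37 for Col7a1, 1.44 for Col16a1, 1.37 for Sparc, 3.74 for Sned1, 1.57 for Loxl3, 2.12 for Pcolce and 0.66 for Vim.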

How the results depend on the processing

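No called gene of the list changed direction under any alternative. In 4T1, 4 of the 48 genes and 1084 genes in all were called. DESeq2 called 14 and 3095, sample quality weights 10 and 2522, a common fit of all samples 9 and 2689, and a threshold of 0.05 16 and 4982. Leaving out each sample gave 1 to 3 of the list and 269 to 973 in all. In 67NR, 2 of the list and 45 genes in all were called. DESeq2 called 11 and 1042, a threshold of 0.05 15 and 2056, sample quality weights 247 genes in all and a common fit 151. Leaving out each 67NR sample gave 0 to 1 of the list and 0 to 75 in all by limma-voom, and the 5 fits with 0 genes still had 3237 to 3395 genes at an unadjusted p below 0.05, with 17 to 19 of the list. In the interaction, where 8 of the list and 993 genes were called, DESeq2 gave 1981 genes in all, quality weights 1914, and a threshold of 0.05 14 of the list and 3701 in all. Leaving out each sample gave 5 to 8 of the list and 654 to 1049 in all. Between the lines, a threshold of 0.05 gave 8916 genes in all, and the limit of 3 samples on TPM left 29 genes of the list, of which 18 were called. The causes were not tested. Of the genes called, edgeR lost Vcan between the lines. Scaling moved the median of all genes by at most 0.059 (log2). The labels repeat no sample number between groups and do not say which samples were handled together, but each run of 4 consecutive numbers holds 1 sample of each group, and these runs were used as a replicate block in fits chosen after seeing the data. The deviations of samples from their group means correlated within a run at 0.0505 to 0.411 in 4T1, and between runs at -0.274 to 0.206. In 67NR these ranges were -0.0504 to 0.101 and -0.0864 to 0.097. Between the vehicle samples of the lines they were -0.267 to 0.199 and -0.291 to 0.415. In 4T1 the highest values, 0.411 and 0.323, were within runs. Whether samples of a run were handled together was not tested, and the main fits did not take the runs as pairs. With the block 1048 genes were called in 4T1, 796 of them also without it, and of the list 3 of the 4 (not Col4a2). Col7a1 had a limma-voom adjusted p of 0.00111 with the block and of 0.148 without it. Of the list 25 genes had an unadjusted p below 0.05 with the block and 19 without it. In 67NR 0 genes were called by limma-voom with the block (3913 at an unadjusted p below 0.05, 23 of them of the list). The interaction again had 8 called genes of the list, with Lamb2 and Thbs1 in place of Col5a1 and Sned1, and the lines 23 of 25 (not Col1a2 and Col5a1). The 11 genes below the TPM limit in both lines were left out by that limit, and without a filter 47 of the 48 genes were tested between the lines, 8 being called higher and 19 lower.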
